A study of Mus musculus with 6 samples.

Results

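The genes described here are 10 chaperones and folding factors of the endoplasmic reticulum (ER): Hspa5, Dnajb11, Hyou1, Sdf2l1, Hsp90b1, Calr, Pdia4, Pdia6, Manf and Creld2. They were chosen by name, but with earlier results of these data known. The counts below thus describe this list and are no blind test of it. Every probe set of the array whose single annotated symbol is one of these names was taken, which gave 19 of the 45037 non-control probe sets and 10 of the 18193 genes with a probe set of their own. Of the 19, 16 were bright enough to be tested, and each gene had at least 1 tested probe set. The hearts came from 3 groups of mice on the B6 background, all 8 months old and fed a chow with 7% fat and 0.15% cholesterol, with 2 Affymetrix arrays per group. The first group was apoE-deficient and was given the antidiabetic PPAR gamma agonist rosiglitazone at a daily 30 mg/kg from 6 months of age on, for 2 months; the labels call these hearts failing. The second group was apoE-deficient and untreated, and the third was untreated B6 without the deficiency. ApoE is the apolipoprotein through which lipoprotein remnants are cleared from blood. No treated B6 group was analysed here, and whether each array stands for its own animal is not stated, so the spread behind the p-values may be technical.

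The ER is where secreted and membrane proteins fold. Hspa5, also called BiP, binds unfolded chains there with the help of cofactors, and disulfide isomerases and the calcium-binding lectin calreticulin take the chains further. When unfolded chains accumulate, the sensors of the unfolded protein response, Atf6, Ern1 and Eif2ak3, activate transcription of these same chaperone genes, largely through the ER stress response element (ERSE) in their promoters. In heart muscle the ER is continuous with the sarcoplasmic reticulum, the calcium store for contraction.

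The promoters are shown first because the ERSE is the sequence that the chaperone genes are known to share. It consists of CCAAT and CCACG separated by 9 bases of any kind, and it was searched on both strands in the 250 bases before the start of each gene, in RefSeq promoters of build GRCm38.p6. Of the 10 genes, 8 had a promoter there. Manf and Hyou1 are named only. An ERSE was present in 5 of the 8 promoters, against 37 of all 32851 promoters (0.113%). Because chaperone genes are known for this element, the contrast describes the list and is no test of it. Below, the ERSE with 25 bases on either side is printed 5′ to 3′ on the strand of the gene. Capitals mark both parts of the element, and an element on the opposite strand reads as CGTGG followed by ATTGG.
Hspa5: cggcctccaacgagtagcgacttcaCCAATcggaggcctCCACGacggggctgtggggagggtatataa
Pdia6: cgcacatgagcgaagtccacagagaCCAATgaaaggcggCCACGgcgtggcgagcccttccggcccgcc
Creld2: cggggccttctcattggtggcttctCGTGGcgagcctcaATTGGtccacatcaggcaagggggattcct
Calr: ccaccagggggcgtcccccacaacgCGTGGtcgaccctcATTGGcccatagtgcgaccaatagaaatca
Hsp90b1, distal: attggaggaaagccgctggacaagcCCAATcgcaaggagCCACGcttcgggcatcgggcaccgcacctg
Hsp90b1, proximal: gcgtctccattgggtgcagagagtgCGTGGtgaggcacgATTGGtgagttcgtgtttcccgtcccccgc

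The Hspa5 stretch lies at chr2:34772000-34772068 on the plus strand, with the element at -65 to -47 from the start, just upstream of a TATA sequence. The Pdia6 stretch lies at chr12:17266466-17266534 (plus strand, element at -98 to -80). The Creld2 stretch lies at chr15:88819495-88819563 (plus strand, element at -126 to -108), and the Calr stretch at chr8:84847050-84847118 (minus strand, element at -162 to -144). Hsp90b1 has a pair of elements, at chr10:86705613-86705681 (minus strand, element at -212 to -194) and chr10:86705508-86705576 (element at -107 to -89). Sdf2l1, Pdia4 and Dnajb11 held no ERSE in this window. CCAAT alone was in 8 of 8 promoters (33.8% of all promoters) and CCACG alone in 6 of 8 (28.3%), and both counts include the parts of whole elements. The ERSE-II, which is ATTGG, 1 base and CCACG, was in 0 of 8 (0.0304% of all). With the 50 bases after the start included, CCACG was in 8 of 8 (32.8% of all) and the ERSE-II in 1 of 8 (0.0365% of all), that of Dnajb11 at 8 to 18 bases after the start. The unfolded protein response element TGACGTGG was also in 0 of 8 (0.563% of all). These matches describe sequence, and no binding was measured.

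**Figure D1:**
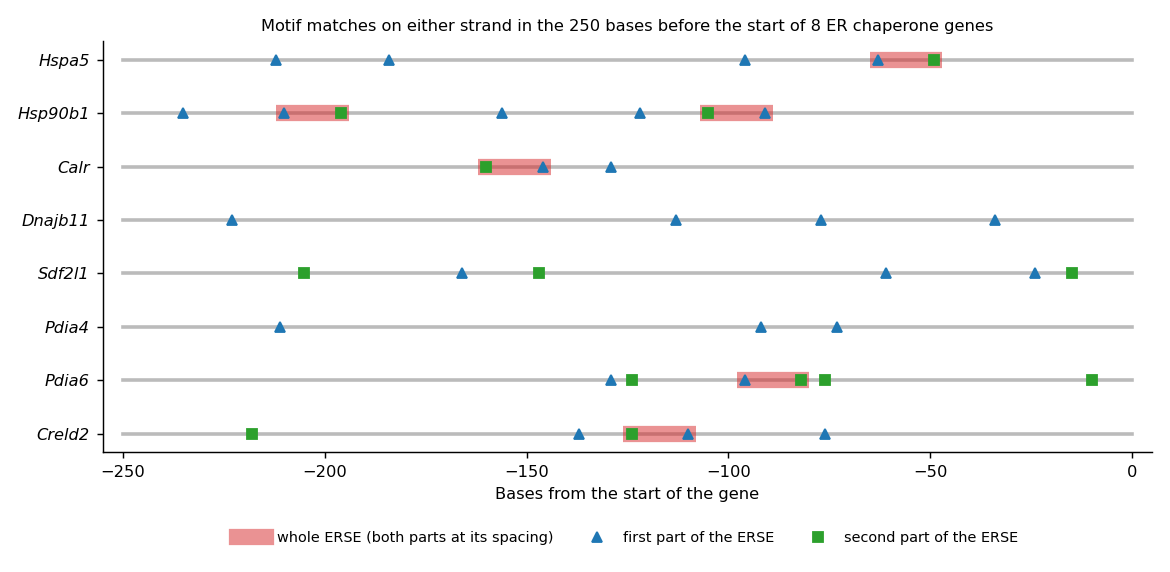
Position of motif matches, in bases from the start of the gene (horizontal axis), in the promoters of 8 ER chaperone genes (rows). Red blocks are whole ERSEs on either strand. Triangles and squares are all matches of the first and second part, those inside whole elements included. Whole elements appear for Hspa5, Creld2, Pdia6, Calr and, as a pair, Hsp90b1.

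The deposited values are linear probe set intensities that differ in overall brightness between groups. Treated arrays were the brightest, with 2%-trimmed means of 341 and 263, followed by B6 (175 and 149) and untreated apoE-deficient hearts (126 and 130). The arrays were therefore quantile normalized, and values below are log2(normalized signal + 11.1) unless another scale is named. Differences on this scale understate the change of dim probe sets. Apoe, the gene that is deficient, was 11.88 ± 0.04 in B6 (SD, n = 2 arrays), 5.77 ± 0.75 in untreated and 6.23 ± 0.04 in treated apoE-deficient hearts, so the arrays match their genotype labels. The 2 arrays per group limit the precision, and an exact permutation test of 2 against 2 cannot go below p = 0.333. Tests are therefore limma's over all 27022 tested probe sets, and "passed" means a Benjamini-Hochberg adjusted p under 0.05.

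Transcripts of other tissues differed between the groups beside the chaperones. For the counts of markers that passed, the shares of all tested genes were as follows. With treatment 11.4% rose and 12.3% fell. In untreated against B6 hearts 3.85% rose and 4.66% fell, and in treated against B6 hearts 8.78% rose and 9.87% fell. The summed normalized signal of the heart muscle markers was 102690 to 107077 on treated, 110082 to 110857 on untreated and 113587 to 114434 on B6 arrays, and 2 of its 7 genes rose and 4 fell with treatment. The fat cell markers summed to 10498 to 10669 on treated arrays against 642 to 673 on untreated and 1077 to 1133 on B6 arrays, and 3 of 4 tested markers rose. All 5 brown fat markers rose (11370 to 11486 against 1143 to 1174 and 1051 to 1124), as did 4 of 5 airway markers (14593 to 15433 against 87.9 to 88.9 and 65.2 to 82.0). Markers of B and plasma cells, which are rich in ER chaperones, summed to 1643 to 1928 on treated arrays against 248 to 306 and 288 to 320, and 3 of 6 rose. Fibroblast markers rose with treatment in 6 of 7 cases (24161 to 24290 against 18629 to 18815 and 20946 to 21364). Endothelial markers did so in 3 of 5 (4429 to 4529 against 3454 to 3479 and 3887 to 3928). In untreated against B6 hearts 3 fibroblast, 2 endothelial and 3 fat cell markers fell, and 0 of these lists rose. Some lists were instead higher in untreated hearts or lower in treated ones, as the chaperones were. Pancreas markers summed to 155 to 186 on untreated arrays against 85.2 to 87.8 on treated and 91.9 to 93.1 on B6 arrays, and Prss2, the 1 of 3 that could be tested, rose in untreated against B6 hearts (1.25) and fell with treatment (-1.02). Of 5 macrophage markers, 3 rose and 1 fell in untreated against B6 hearts (sums of 7453 to 7658 against 5905 to 6145), and 1 rose and 1 fell with treatment (7509 to 7542 on treated arrays). Of 3 tested red blood cell markers, 2 fell in each comparison (109 to 178 on treated, 338 to 408 on untreated and 833 on B6 arrays). No marker list summed to 0 on any array. The part of these tissues in the chaperone values was not tested, and in bulk heart RNA fewer cells of a type and less RNA per cell cannot be told apart.

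In rosiglitazone-treated against untreated apoE-deficient hearts, 8 of the 10 chaperone genes fell and none rose. They were Sdf2l1, Manf, Pdia6, Creld2, Hspa5, Hyou1, Dnajb11 and Calr, and their differences ranged from -0.21 to -1.43 on the log2 scale. Pdia4 and Hsp90b1 did not pass. Among all 13236 tested genes 12.3% fell and 11.4% rose in this comparison. The median difference of the 10 was -0.66, against -0.034 over all genes. At an unadjusted p under 0.05, 9 were lower and 0 higher. The shares of all genes at this looser cutoff were not counted, so the shares above are no measure for it. Of the 16 tested probe sets of these genes, 12 fell (9.81% of all probe sets fell). In untreated apoE-deficient against B6 hearts, Manf, Creld2 and Hyou1 rose, none fell, and the median of the 10 was 0.33 (all genes 0.00060). Of all genes, 3.85% rose there and 4.66% fell. The members' median was 0.18 without untreated replicate 2 and 0.15 with the mean of each gene's probe sets. Among the members' probe sets 4 rose and 1 fell (3.17% and 3.90% of all). In treated apoE-deficient against B6 hearts, 6 of the 10 fell and none rose, with a median of -0.37 (all genes -0.027); of all genes, 9.87% fell and 8.78% rose. Of their probe sets 10 fell (7.58% of all fell and 7.46% rose). The comparisons share arrays and are not independent of each other. The directions given for treated hearts hold for arrays set to equal overall signal. Without any scaling, 8 of the 10 genes had positive differences from untreated to treated hearts, as described below.

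**Figure D2:**
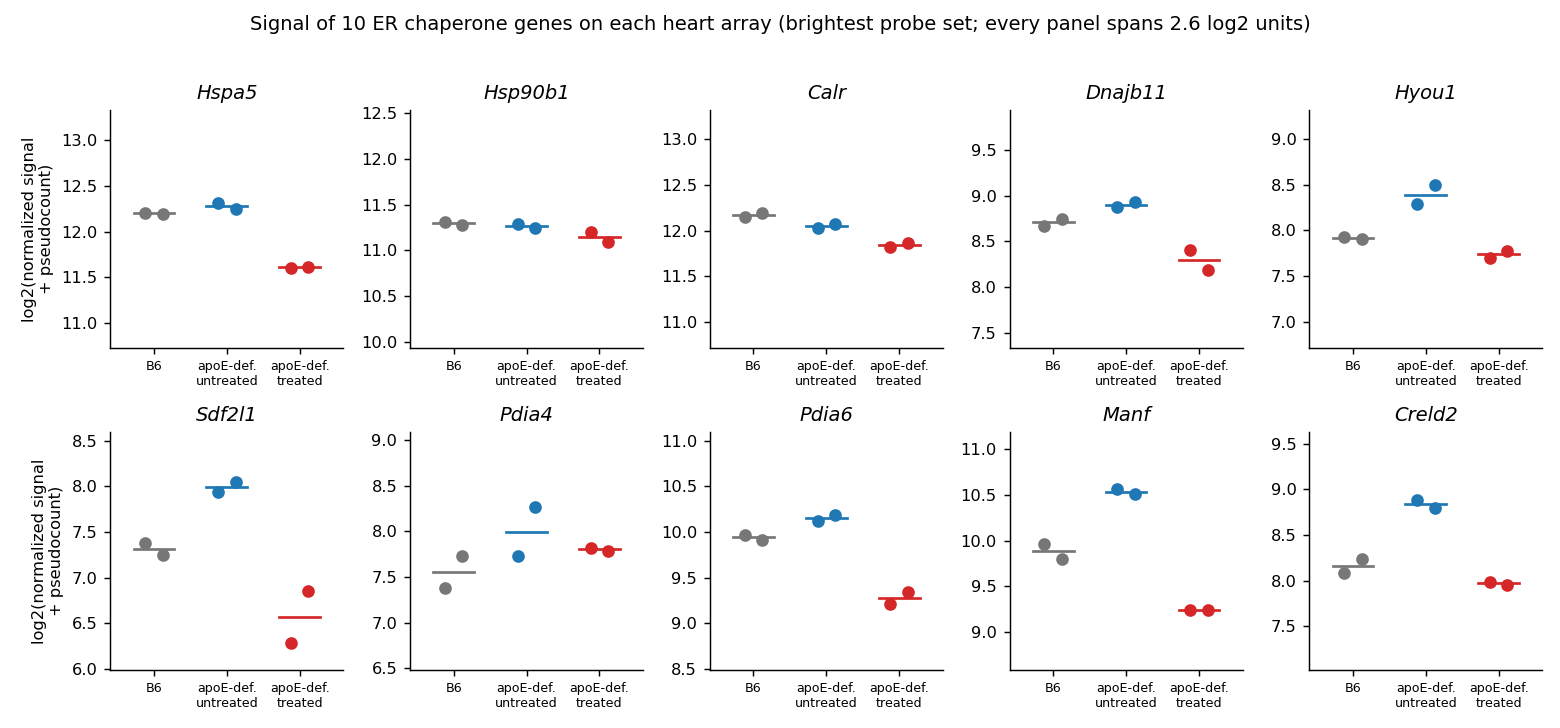
Log2(normalized signal + pseudocount) of the brightest probe set of each of the 10 genes (panels) on each array, grouped as B6, untreated apoE-deficient and treated apoE-deficient. Each point is 1 array, and every panel spans 2.6 log2 units. The treated arrays are the lowest pair for Manf, Sdf2l1, Pdia6, Hspa5, Dnajb11, Calr, Creld2, Hyou1 and, by a narrow margin, Hsp90b1.

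Hspa5, the Hsp70 of the ER lumen and the central chaperone of the group, read 12.21 and 12.20 on the B6 arrays, 12.32 and 12.25 on the untreated and 11.60 and 11.62 on the treated apoE-deficient arrays with its brightest probe set (1416064_a_at). The treated arrays were below all others, while the B6 and untreated arrays differed by little more than the untreated pair did. The treated level was 62.7% of the untreated one (-0.67 ± 0.04 SE, adjusted p = 1.2e-05) and 66.4% of B6 (-0.59 ± 0.04, adjusted p = 2.85e-05), whereas untreated against B6 gave 0.08 ± 0.04 (adjusted p = 0.269). Its other probe sets gave other pictures. Probe set 1427464_s_at read 11.54 and 11.52 in B6, 11.86 and 11.90 in untreated and 11.55 and 11.29 in treated hearts. It fell with treatment (-0.46 ± 0.07, adjusted p = 0.00253) and rose in untreated against B6 hearts (0.35 ± 0.07, adjusted p = 0.025). The least bright of its probe sets, 1447824_x_at, did not pass with treatment (-0.25 ± 0.15, adjusted p = 0.293). It was lower in untreated than in B6 hearts (-0.66 ± 0.15, adjusted p = 0.0351). All 3 thus lay lower in treated than in untreated hearts, and they disagreed on how untreated hearts compare with B6. They also differed on treated hearts against B6. There 1427464_s_at did not pass (-0.11 ± 0.07, adjusted p = 0.4), while 1447824_x_at was lower (-0.91 ± 0.15, adjusted p = 0.00385).

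The cofactors of Hspa5 that are members are the J-domain protein Dnajb11, the nucleotide exchange factor Hyou1 and the Dnajb11 partner Sdf2l1. Dnajb11 was 8.67 and 8.74 in B6, 8.88 and 8.93 in untreated and 8.41 and 8.19 in treated hearts. The treated arrays lay below the others without overlap, and the treated level was 65.8% of the untreated one (-0.60 ± 0.10, adjusted p = 0.00309). Against B6 the treated hearts were at 75.3% (-0.41 ± 0.10, adjusted p = 0.0249), a call lost without treated replicate 2 (-0.30), B6 replicate 1 (-0.44) or B6 replicate 2 (-0.37). The 0.20 ± 0.10 between untreated and B6 hearts did not pass (adjusted p = 0.29).

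Hyou1 (1423291_s_at) read 7.93 and 7.90 in B6, 8.28 and 8.50 in untreated and 7.70 and 7.78 in treated hearts, so that the groups did not overlap and the untreated pair was the highest. It fell with treatment to 63.7% of the untreated level (-0.65 ± 0.12, adjusted p = 0.00459). Untreated hearts were at 139% of B6 (0.47 ± 0.12, adjusted p = 0.0452), but this call was lost on leaving out any 1 of the 6 arrays (0.37 to 0.58), on averaging its probe sets (0.24) and when dim probe sets were kept in (adjusted p = 0.0657). Treated hearts did not pass against B6 (-0.18 ± 0.12, adjusted p = 0.389). A dimmer probe set, 1423290_at, gave -0.74 ± 0.27 with treatment (adjusted p = 0.0875), and the last, 1451913_a_at, was too dim to be tested.

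Sdf2l1 had the widest swing of the group. Its values were 7.38 and 7.25 in B6, 7.94 and 8.05 in untreated and 6.29 and 6.85 in treated hearts, with no overlap between groups. The treated level was 37.2% of the untreated one (-1.43 ± 0.20, adjusted p = 0.00112). The 161% of B6 in untreated hearts did not pass (0.68 ± 0.20, adjusted p = 0.0735). Treated hearts were at 59.8% of B6 (-0.74 ± 0.20, adjusted p = 0.0339), and that call was lost without treated replicate 1 (-0.46), untreated replicate 2 (-0.74), B6 replicate 1 (-0.67) or B6 replicate 2 (-0.81). By the brightest probe sets, its treated arrays lay further apart than those of any other member.

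Calreticulin (Calr) is a lectin chaperone and calcium store protein, and Hsp90b1, also called Grp94, is the Hsp90 of the ER lumen. Calr (1417606_a_at) was 12.15 and 12.19 in B6, 12.03 and 12.07 in untreated and 11.82 and 11.86 in treated hearts. The groups descended in that order without overlap. Calr fell with treatment to 86.5% of the untreated level (-0.21 ± 0.04, adjusted p = 0.00659), a call lost without untreated replicate 2 (-0.19), and stood at 79.4% of B6 (-0.33 ± 0.04, adjusted p = 0.000722). Untreated against B6 gave -0.12 ± 0.04 (adjusted p = 0.108). Its other probe sets, 1456170_x_at and 1433806_x_at, fell with treatment by 0.43 ± 0.07 (adjusted p = 0.00319) and 0.35 ± 0.04 (adjusted p = 0.000598), so that all 3 passed in the same direction.

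Hsp90b1 read 11.31 and 11.27 in B6, 11.28 and 11.24 in untreated and 11.20 and 11.10 in treated hearts with its brightest probe set (1415889_a_at), and no comparison passed. With treatment it gave -0.12 ± 0.05 (adjusted p = 0.15), and untreated against B6 gave -0.03 ± 0.05 (adjusted p = 0.769). The second probe set, 1438040_a_at, read 11.08 and 11.09 in B6, 11.26 and 11.26 in untreated and 10.81 and 10.71 in treated hearts. There the treated arrays were clearly the lowest, with a fall of 0.50 ± 0.05 against untreated (adjusted p = 0.000203) and 0.33 ± 0.05 against B6 (adjusted p = 0.00242). Whether Hsp90b1 changed therefore depends on the probe set. With the mean of both it passed (-0.31 with treatment, adjusted p = 0.00237).

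The disulfide isomerases Pdia6 and Pdia4 form and rearrange disulfide bonds in folding chains. Pdia6 was 9.97 and 9.92 in B6, 10.12 and 10.19 in untreated and 9.21 and 9.35 in treated hearts, with the treated pair well below the rest. Its treated level was 54.4% of the untreated (-0.88 ± 0.07, adjusted p = 6.28e-05) and 63.1% of the B6 level (-0.66 ± 0.07, adjusted p = 0.000375). Untreated against B6 gave 0.21 ± 0.07 (adjusted p = 0.114). Averaging in a second probe set that was too dim to be tested took both calls away (-0.30 and -0.21). Pdia4 was 7.38 and 7.73 in B6, 7.73 and 8.26 in untreated and 7.82 and 7.79 in treated hearts, and the treated arrays lay between the untreated pair. None of its comparisons passed, at -0.19 ± 0.19 (adjusted p = 0.533), 0.45 ± 0.19 (adjusted p = 0.202) and 0.25 ± 0.19 (adjusted p = 0.458) in the same order. Its errors were among the widest of the group, and the sign of the treatment difference turned without untreated replicate 2 (0.072).

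Manf and Creld2 are small ER proteins that are secreted when the ER is stressed. Manf read 9.96 and 9.80 in B6, 10.56 and 10.51 in untreated and 9.25 and 9.24 in treated hearts. The 3 groups were fully separate, with B6 in the middle. Manf rose in untreated hearts to 157% of B6 (0.65 ± 0.07, adjusted p = 0.00141) and fell with treatment to 40.8% of the untreated level (-1.29 ± 0.07, adjusted p = 6.93e-06). Treated hearts were thus at 64.1% of B6 (-0.64 ± 0.07, adjusted p = 0.000451). Manf was the member that passed in all 3 comparisons.

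Creld2 was 8.09 and 8.24 in B6, 8.88 and 8.79 in untreated and 7.99 and 7.96 in treated hearts. The untreated pair stood apart, and the treated pair lay just under B6. It rose in untreated hearts to 160% of B6 (0.68 ± 0.10, adjusted p = 0.0066), a call lost without B6 replicate 1 (0.60), and fell with treatment to 54.9% of the untreated level (-0.87 ± 0.10, adjusted p = 0.000512). Treated against B6 did not pass (-0.19 ± 0.10, adjusted p = 0.286).

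**Figure D3:**
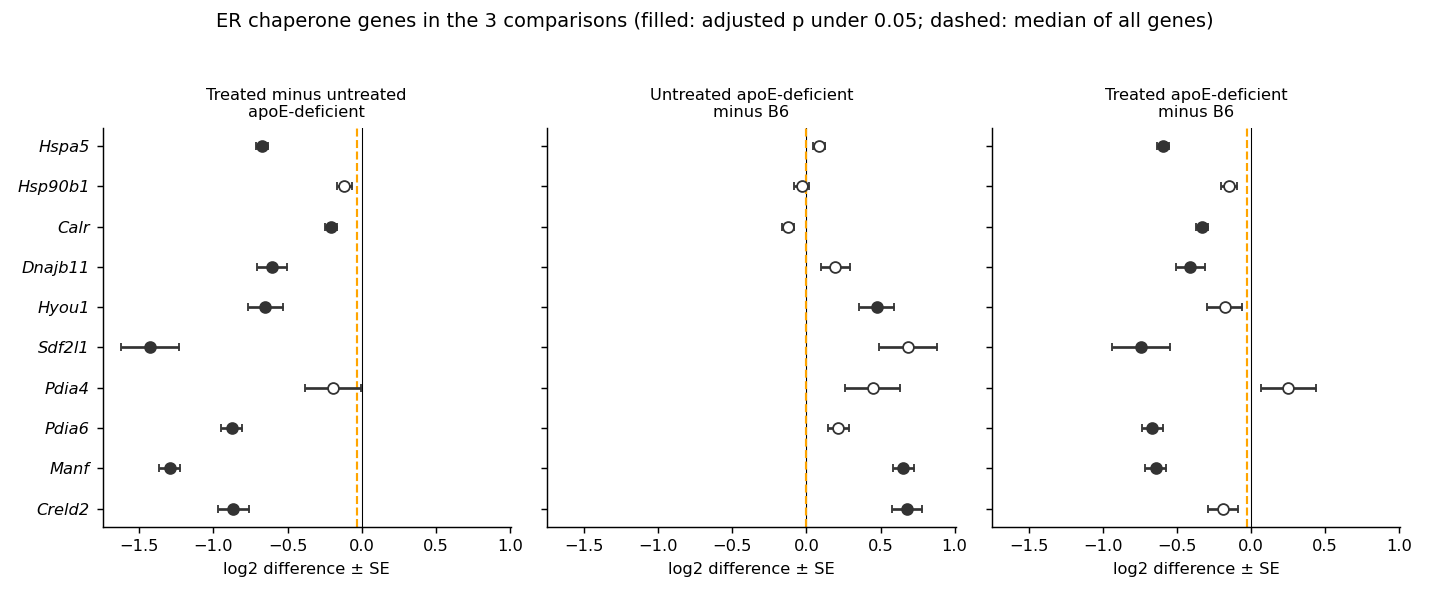
Log2 difference ± SE of the 10 genes in the 3 comparisons (panels), from limma with 2 arrays per group. Filled points passed, and the dashed line is the median of all genes. In treated against untreated hearts 8 points are filled, all left of 0; in untreated against B6 hearts 3 are filled, all right of 0; in treated against B6 hearts 6 are filled, all left of 0.

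By the brightest probe set, Manf passed in all 3 comparisons, as raised in untreated hearts and lowered with treatment to below B6. Sdf2l1 had differences of like size, and its rise in untreated hearts did not pass. Creld2 and Hyou1 passed as raised and then lowered, and their treated hearts did not pass against B6. Hspa5, Pdia6, Dnajb11, Calr and Sdf2l1 passed as lower in treated hearts than in both other groups. Which comparisons a gene passed does not show that members differ from each other, and no such difference was tested. Of the 5 genes with an ERSE, 4 fell with treatment, namely Hspa5, Pdia6, Creld2 and Calr, and Hsp90b1, the one with a pair of elements, did not pass. Of the 3 promoters with no ERSE in the 250 bases, those of Sdf2l1 and Dnajb11 belong to genes that fell and that of Pdia4 to one that did not pass. The other 9 tested genes with an ERSE held 1 that fell, the acetyl-CoA carboxylase Acacb (-0.43), 1 that rose, the adenylyl cyclase Adcy3 (0.98), and 7 that did not pass, among them the ER lectin Canx (0.12). Their median was -0.11. Among all tested genes 12.3% fell and 11.4% rose with treatment, and 1 of 9 is near both shares. Acacb and Adcy3 were singled out for their values.

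The size and sign of the differences in treated hearts depended on how arrays of unequal brightness were made comparable. The deposited Hspa5 signals were 4298 and 3697 in B6, 3710 and 3628 in untreated and 5107 and 4016 in treated hearts, and those of Manf were 877 and 663, 982 and 976, and 1049 and 794. These unscaled signals were thus highest in a treated array for both genes. With no scaling, the median of all tested probe sets was itself 1.13 higher in treated than in untreated hearts. The members' median was 0.52, and 5 members passed as higher and 0 as lower. Of the 27022 tested probe sets, 22716 passed as higher and 23 as lower in that setting. Relative to the median of all probe sets all 10 members were lower. The members' median was -0.66 with 2%-trimmed means set equal (9 lower), -0.59 with array medians set equal (8 lower) and -0.49 with the bacterial hybridization controls set equal (7 lower). The median of all probe sets was then 0.020, 0.086 and 0.18. Of all probe sets, 2765, 2038 and 1422 passed as lower in these settings and 3158, 3735 and 5557 as higher. In treated against B6 hearts the members' median was -0.096 with hybridization controls, where 6 members were below 0, and 0.47 with no scaling, where 0 were. In untreated against B6 hearts it was -0.018 with no scaling. All 10 members lay below the median of all probe sets in treated against untreated hearts under each of the 5 scalings, but scaling by 1 factor per array moves all genes nearly alike, so this is not a separate test. Single calls did depend on the scaling. With the hybridization controls, Hyou1 no longer passed in treated against untreated hearts (-0.37). Sdf2l1 (-0.40), Dnajb11 (-0.046) and Calr (-0.15) then no longer passed in treated hearts against B6. In untreated against B6 hearts 6 members rather than 3 passed as raised with these controls, beside 2458 rather than 856 of all probe sets. Hyou1 lost its rise in untreated hearts with trimmed means (0.42) and array medians (0.35). A fit without the intensity trend of the variance called 6 members lower with treatment, 0 higher in untreated hearts and 1 lower against B6. Of all probe sets it called 595, 6 and 186 in these directions.

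**Figure D4:**
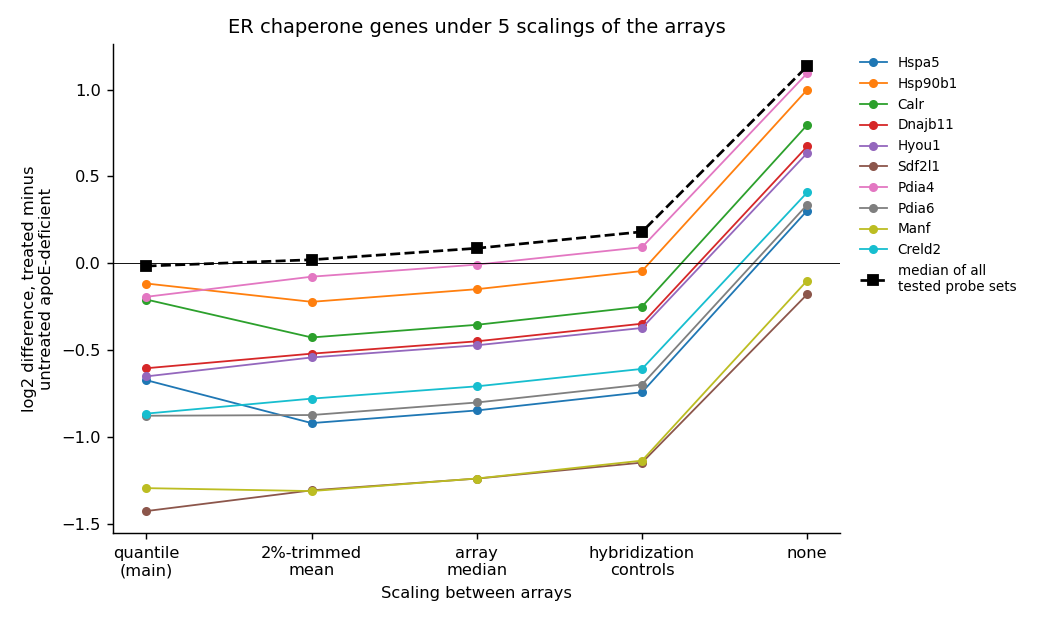
Log2 difference between treated and untreated apoE-deficient hearts (vertical axis) for each of the 10 genes under 5 ways to scale the arrays (horizontal axis). The dashed black line is the median of all tested probe sets, which moves from -0.016 with quantile normalization to 1.13 with no scaling, and every member lies below it in each setting.

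The lists below are read against the 12.3% of all genes that fell and the 11.4% that rose with treatment. Of 18 tested sensors and transcription factors of the unfolded protein response, which control the chaperones, 4 fell and 2 rose, and the median was -0.14. Xbp1, whose spliced form drives folding genes, fell by 0.31 ± 0.05 (adjusted p = 0.00298). Atf4, the translationally controlled factor downstream of Eif2ak3, fell by 0.58 ± 0.07 (adjusted p = 0.000684) after a rise of 0.59 ± 0.07 in untreated against B6 hearts (adjusted p = 0.00259). Its target Ddit3 (-0.60) and the CCAAT-binding subunit Nfya (-0.48) also fell, while another such subunit, Nfyb (0.64), and the protease that cleaves Atf6, Mbtps1 (0.28), rose. In untreated against B6 hearts Atf6 also rose (0.28) and Mbtps1 fell (-0.42), beside 3.85% of all genes that rose and 4.66% that fell. Probe set intensity does not separate spliced from unspliced Xbp1. Leaving out arrays ended several of these calls. Ddit3 was lost without treated replicate 1 (-0.44) or untreated replicate 1 (-0.45), Nfya without either treated array (-0.51 and -0.44) or untreated replicate 2 (-0.36), and Nfyb without either treated array (0.66 and 0.62) or untreated replicate 1 (0.59). Mbtps1 was lost with treatment without any 1 of the 4 apoE-deficient arrays (0.25 to 0.30) and against B6 without untreated replicate 1 (-0.39), untreated replicate 2 (-0.44) or B6 replicate 2 (-0.36). Atf6 was lost without any 1 array but treated replicate 2 (0.23 to 0.31). Xbp1 and Atf4 kept their calls without each array, but Atf4 lost both with the mean of its probe sets (-0.24 and 0.24). In that setting Ddit3 (-0.50), Nfya (-0.19) and Mbtps1 (-0.060) lost their treatment calls and Atf6 (0.35) and Mbtps1 (0.042) those against B6. Without the intensity trend, Atf4 and Nfyb still passed with treatment, Xbp1 did not (adjusted p = 0.102), and none passed against B6.

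Counts of folding enzymes outside the 10 members were again set beside 12.3% fallen and 11.4% risen among all genes. Of 27 other ER chaperones, lectins and prolyl isomerases, 3 fell and 6 rose with treatment (median -0.012), and of 17 other disulfide isomerases and oxidases 3 fell and 6 rose (median -0.075). The collagen chaperone Serpinh1 fell by 0.51 ± 0.04 (adjusted p = 7.34e-05) and had risen by 0.36 ± 0.04 in untreated against B6 hearts (adjusted p = 0.00188), and the disulfide isomerase relative Erp29 changed in the same directions (-0.52 with treatment and 0.36 against B6). The other 2 chaperone-list genes that fell were the Hspa5 exchange factor Sil1 (-0.38) and the prolyl isomerase Fkbp2 (-0.32), and the other 2 isomerases were Erp44 (-0.37) and Tmx1 (-0.17). Among those that rose were the membrane thioredoxins Tmx3 (0.71) and Tmx2 (0.39), and Cnpy2 (0.36). In untreated against B6 hearts Serpinh1 and Erp29 were the genes of these lists that rose. Fkbp9 (-0.32), Tmx2 (-0.37) and Tmx4 (-0.33) fell there, beside 3.85% of all genes that rose and 4.66% that fell. Without 1 array each, the treatment call was lost for Sil1 without either treated array (-0.41 and -0.35), untreated replicate 1 (-0.27) or either B6 array (-0.38 in both), for Fkbp2 without any of the 4 apoE-deficient arrays (-0.29 to -0.34), for Erp44 without either treated array (-0.36 and -0.39) or untreated replicate 1 (-0.27), and for Tmx1 without any array (-0.13 to -0.20). The B6 call of Erp29 was lost without any of the untreated or B6 arrays (0.32 to 0.40), that of Fkbp9 without B6 replicate 2 (-0.32), that of Tmx2 without untreated replicate 1 (-0.37), untreated replicate 2 (-0.36) or B6 replicate 2 (-0.28), and that of Tmx4 without untreated replicate 1 (-0.33), untreated replicate 2 (-0.32) or B6 replicate 1 (-0.29). Serpinh1 kept its calls without each array. With the mean of all probe sets of a gene, Tmx3 (0.22), Cnpy2 (0.068) and Erp44 (-0.093) lost their treatment calls and Fkbp9 (-0.22) and Tmx4 (-0.100) those against B6. Without the intensity trend, Serpinh1 and Tmx3 were the named genes of these lists that still passed with treatment, and none of the 5 named passed against B6.

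Degradation, import and export genes of the ER mostly did not pass. Of 20 ER-associated degradation genes, 2 fell with treatment, the stress-induced membrane protein Herpud1 (-0.35 ± 0.05, adjusted p = 0.000858) and Nploc4 (-0.51), and Derl1 rose (0.37); the median was -0.11. Of 20 translocon, signal peptidase and oligosaccharyl transferase genes, Sec11a fell (-0.28) and Stt3a (0.75), Sec61b (0.28) and Ssr4 (0.23) rose, with a median of -0.038. Of 16 KDEL receptors and ER-Golgi carriers, the COPII GTPase Sar1a (-0.38 ± 0.05, adjusted p = 0.000764), the cargo lectin Lman2 (-0.36) and Tmed10 (-0.25) fell and Arf4 rose (0.24), with a median of -0.073. In untreated against B6 hearts, Derl1 (-0.31), Ddost (-0.22) and Stt3a (-0.31) fell. No gene of the 3 lists rose there by limma, beside 3.85% of all genes that rose and 4.66% that fell. At an unadjusted p under 0.05, 2, 1 and 1 genes of the 3 lists were higher and 1, 3 and 2 lower. The shares of all genes at that cutoff were not counted. Herpud1 and Sar1a kept their treatment calls without each array, as did Derl1 and Stt3a. With the mean of probe sets Derl1 (0.12), Stt3a (0.32), Sec11a (-0.21), Ssr4 (0.19), Lman2 (-0.16) and Arf4 (0.34) were lost, and so were the falls of Derl1 (-0.097) and Stt3a (-0.27) against B6. Without the intensity trend Stt3a was the named gene that still passed with treatment (Herpud1 at adjusted p = 0.0809 and Sar1a at 0.0719 did not), and none passed against B6. Lost without 1 array were Nploc4 without any of the 4 apoE-deficient arrays (-0.41 to -0.61), Sec61b without any of those 4 (0.26 to 0.31), Sec11a without treated replicate 1 (-0.25) or untreated replicate 1 (-0.24), Ssr4 without treated replicate 1 (0.18) or either untreated array (0.27 and 0.20), Lman2 without treated replicate 1 (-0.35) or untreated replicate 2 (-0.28), Tmed10 without treated replicate 1 (-0.23) or untreated replicate 1 (-0.17), and Arf4 without treated replicate 1 (0.19) or either untreated array (0.24 and 0.23). Against B6, Derl1 was lost without any untreated or B6 array (-0.29 to -0.33), Ddost without any array (-0.19 to -0.25) and Stt3a without any array (-0.24 to -0.39).

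**Figure D5:**
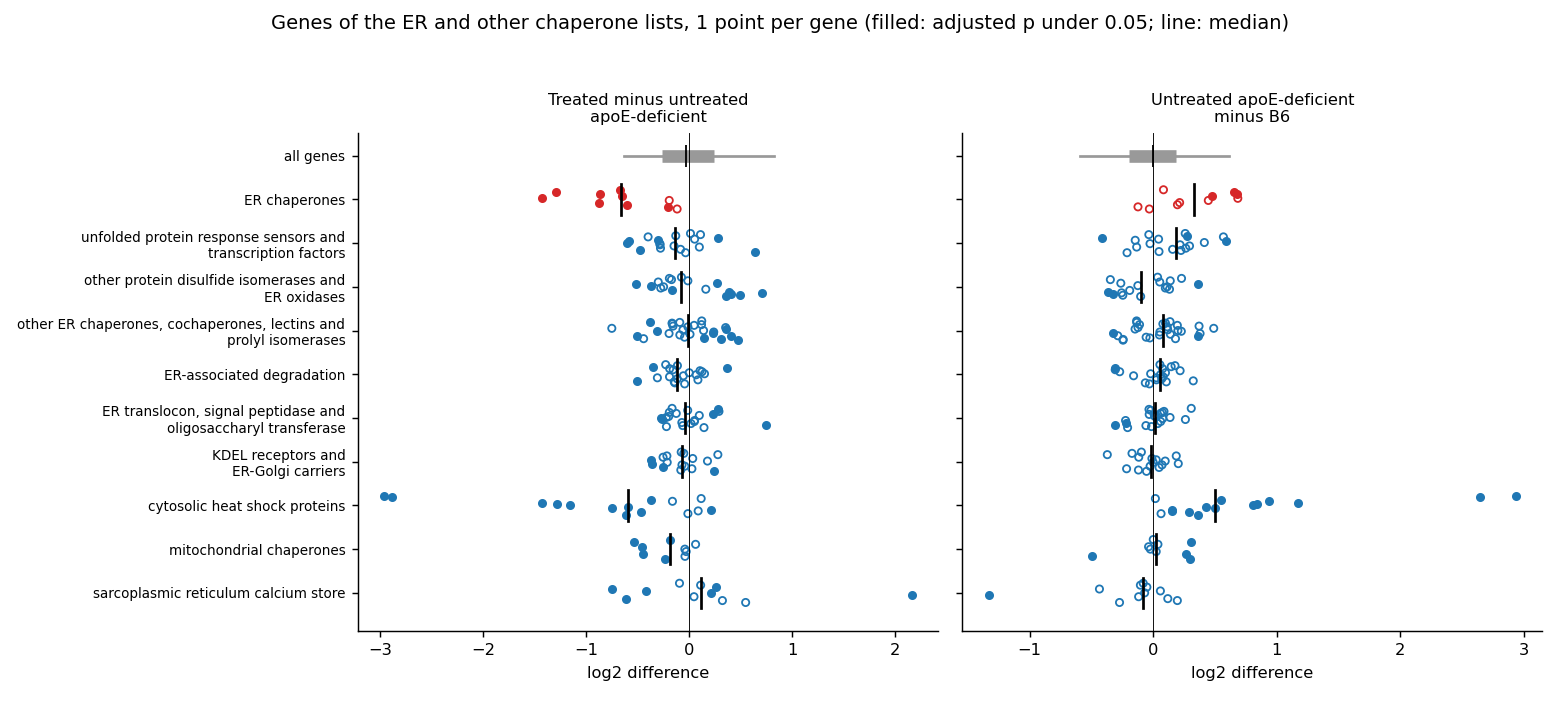
Log2 difference of each tested gene (points) in the lists of ER and other chaperone genes (rows), for treated against untreated apoE-deficient hearts and untreated apoE-deficient against B6 hearts (panels). Filled points passed and lines are list medians. The medians of the 10 ER chaperones (-0.66 and 0.33) and of the cytosolic heat shock proteins (-0.60 and 0.50) lie away from 0, and those of the other ER lists lie between -0.14 and 0.19.

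Chaperones of other compartments were set beside the ER group. Of all tested genes, 12.3% fell and 11.4% rose with treatment. In untreated against B6 hearts 3.85% rose and 4.66% fell. Of 15 tested cytosolic heat shock proteins, 10 fell with treatment (median -0.60) and 13 rose in untreated against B6 hearts (median 0.50), led by Hspa1a (-2.96 ± 0.10 and 2.94 ± 0.10), the Hsp110 Hsph1 (-1.43 and 1.17) and the J-domain protein Dnaja1 (-1.29 and 0.84). Without the intensity trend the rises of Hsph1 and Dnaja1 no longer passed (adjusted p = 0.0671 and 0.0808). The one that rose with treatment, Hspb6 (0.22), turned to -0.49 with trimmed means, -0.42 with array medians and -0.31 with hybridization controls set equal. Of 9 mitochondrial chaperones and proteases, Hspe1 (-0.54), Trap1 (-0.46), Clpp (-0.45), Lonp1 (-0.24) and Hspd1 (-0.19) fell with treatment. There Trap1 was lost with the mean of its probe sets (-0.18), Hspe1 alone still passed without the intensity trend, and Lonp1 without treated replicate 2 (-0.19) or either untreated array (-0.22 and -0.24). In untreated against B6 hearts Hspe1 (0.31), Clpp (0.26) and Lonp1 (0.30) rose and Clpx fell (-0.49). Of these 4, Clpp and Lonp1 were lost without any untreated or B6 array (0.21 to 0.31 and 0.29 to 0.31) and Clpx without untreated replicate 2 (-0.35), B6 replicate 1 (-0.42) or B6 replicate 2 (-0.56). With the mean of probe sets Hspe1 (0.27), Clpp (0.052) and Clpx (-0.34) lost these calls, and without the intensity trend all 4 did. In the sarcoplasmic reticulum, 3 of 11 calcium store genes fell with treatment (Casq1 -0.75, Jph2 -0.62, Hrc -0.42), and the SERCA regulator Sln rose by 2.17 ± 0.06; Hrc no longer passed without the intensity trend. Pln (0.22) and Casq2 (0.26) also passed as higher with treatment, but turned to -0.52 and -0.091 with array medians set equal. The Casq2 call was lost without untreated replicate 2 (0.24). In untreated against B6 hearts Sln was the 1 gene of this list that fell (-1.33), and 0 rose. That fall of Sln no longer passed in limma without the intensity trend (adjusted p = 0.0671).

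Over the 6 arrays, the mean centred log2 value of the 10 members was 0.0035 and 0.021 in B6, 0.30 and 0.38 in untreated and -0.37 and -0.33 in treated hearts. Manf followed this mean most closely (r = 0.99) and Pdia4 least (r = 0.33), with Calr and Hsp90b1 at 0.65 and 0.64. These correlations describe 6 arrays in 3 groups, and each member is part of the mean. The genes outside the group with the most similar course were Rab22a, Samm50, Pebp1, Wdr5, Fndc5, Sox7, Elf2, Git1, Lzts2 and Ldb3, with r from 0.996 to 0.998. Of the 100 most similar genes, 0 were in the other ER lists, whose 118 genes made up 0.892% of the 13226 compared.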

How the data were processed

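Each deposited value is the linear intensity of a probe set on 1 array, from GCOS per the submitters' processing notes; how GCOS was set is not given here. RNA was column-purified heart RNA, labelled as biotin cRNA per the labels' protocols. The design took all 6 arrays in 1 fit. Signals of 45037 non-control probe sets (64 controls left out) were quantile normalized, a pseudocount of 11.1 (the 25th percentile) was added and log2 taken. Probe sets with a mean above the 40th percentile (4.99) entered limma 3.58.1 (R 4.3.3; lmFit, then eBayes with a trend of variance on intensity, 3 residual and 5.97 prior degrees of freedom) and Benjamini-Hochberg adjustment over 27022 probe sets. The procedure was tested on simulated data. A gene is its brightest probe set. The annotation, which can be old, gave 34945 probe sets 1 symbol, 932 several and 9160 none; 34741 symbols were updated by gene number. Promoters are RefSeq's of build GRCm38.p6, from 250 bases before to 50 after the start, 32851 in all; the arrays' files name no build.

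The members and the lists were chosen with earlier results of these data known. Named are all members, the genes of each list with the smallest p in each comparison (fewer than the rule allows), genes behind a count of 5 or fewer, which were named after their values were seen, and the 10 genes with the highest correlation with the members' mean. Alternatives were 4 other scalings, another pseudocount, no filter, no intensity trend, the mean of a gene's probe sets, the replicate number as a block, and each array left out in turn. The replicate numbers share only a number: deviations of same-numbered arrays correlated at -0.0063 to 0.033.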

Additional observations from a re-analysis of the deposited data

How the results depend on the processing

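The counts of members and of passing probe sets (5355 with treatment, 1909 for untreated against B6, 4066 for treated against B6) kept within 1.5 times with trimmed means, array medians, the other pseudocount, no filter and the mean of probe sets, which gives no probe set count. With the replicate number as a block, which the check of deviations does not bear out as a pairing, 5344, 1937 and 4103 probe sets and 8, 3 and 6 members passed, so that no member call changed. Leaving out 1 array gave 7 to 8 members lower with treatment, 1 to 3 higher in untreated hearts and 4 to 6 lower against B6, and 2933 to 5018, 617 to 1730 and 2205 to 4104 probe sets; fewer arrays leave fewer degrees of freedom. Without the intensity trend 1653, 10 and 626 probe sets passed, and 0 members were higher in untreated hearts and 1 lower against B6. With hybridization controls 3039 probe sets passed for untreated and 7604 for treated against B6, with 6 members higher in the former and 1 higher and 3 lower in the latter. With no scaling 22739 probe sets and 5 members (higher; 0 lower) passed with treatment, 0 members in untreated hearts, and 18723 probe sets and 5 members (higher; 0 lower) for treated against B6. Of the calls with treatment 50.5% were higher, against 53.3% with trimmed means, 64.7% with array medians, 79.6% with hybridization controls and 99.9% with no scaling; for untreated against B6 the shares were 44.8%, 44.6%, 25.7%, 80.9% and 4.65%, and for treated against B6 49.6%, 47.1%, 45.8%, 92.5% and 99.7%. The median of all differences moved to 0.18, 0.11 and 0.28 with hybridization controls and to 1.13, -0.32 and 0.81 with no scaling.

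Signs turned as follows; the cause was not tested. With trimmed means Pln (-0.59), Casq2 (-0.16) and Hspb6 (-0.49) turned with treatment and Hsp90b1 (0.0017) in untreated hearts. With array medians Pln (-0.52), Casq2 (-0.091) and Hspb6 (-0.42) turned. With hybridization controls Pdia4 (0.092), Pln (-0.41) and Hspb6 (-0.31) turned with treatment, Calr (0.10) and Hsp90b1 (0.14) in untreated hearts, and Creld2 (0.16), Hyou1 (0.18) and Hsp90b1 (0.094) in treated against B6. With the mean of probe sets Pdia4 (0.13) and Mbtps1 (-0.060) turned with treatment, Hspa5 (-0.075), Pdia4 (-0.43), Hsp90b1 (0.070) and Mbtps1 (0.042) in untreated hearts, and Pdia4 (-0.31) in treated against B6. Without 1 array, Pdia4 ranged from -0.46 to 0.072 with treatment and turned without untreated replicate 2. With no scaling these turned with treatment: Hspa5 0.30, Creld2 0.41, Hyou1 0.63, Pdia4 1.09, Pdia6 0.34, Dnajb11 0.67, Calr 0.80, Hsp90b1 0.999, Xbp1 0.82, Atf4 0.62, Ddit3 0.67, Nfya 0.81, Erp29 0.73, Erp44 0.91, Tmx1 0.97, Serpinh1 0.55, Sil1 0.90, Fkbp2 0.94, Herpud1 0.72, Nploc4 0.77, Sec11a 0.94, Sar1a 0.75, Lman2 0.88, Tmed10 0.87, Hspe1 0.47, Trap1 0.70, Hspd1 0.75, Clpp 0.69, Lonp1 0.94, Jph2 0.42, Hrc 0.42 and Casq1 0.52. In untreated hearts Hspa5 (-0.12), Pdia6 (-0.10), Dnajb11 (-0.16), Atf6 (-0.045), Clpp (-0.025) and Lonp1 (-0.015) turned, and in treated against B6 Hspa5 0.18, Manf 0.26, Creld2 0.72, Hyou1 0.73, Sdf2l1 0.12, Pdia6 0.23, Dnajb11 0.51, Calr 0.43 and Hsp90b1 0.67. Manf and Sdf2l1 kept their sign with treatment in every setting. Of the named genes outside the members, hybridization controls ended the treatment calls of Ddit3, Nfya, Nploc4, Erp44, Tmx1, Sil1, Fkbp2, Lman2, Tmed10, Sec11a, Lonp1 and Casq2, array medians those of Nfya, Nploc4, Erp44, Tmx1, Sil1, Fkbp2, Lman2, Sec11a and Lonp1, trimmed means those of Nfya, Nploc4, Erp44, Sil1, Arf4 and Ssr4, and no filter those of Sil1 and Tmx1. For untreated against B6 hearts, hybridization controls ended the calls of Derl1, Ddost, Stt3a, Fkbp9, Tmx2 and Tmx4. Array medians ended those of Atf6, Erp29 and Lonp1. Trimmed means and the replicate block each ended that of Ddost, and no filter those of Atf6, Clpp, Ddost and Stt3a. With no scaling Atf4, Erp29, Serpinh1, Stt3a, Dnaja1, Hspe1, Ddost and Derl1 lost theirs without a turn of sign. Dim probe sets limit what can be read of Pdia4, Pdia6 and Hyou1.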
